A study of Homo sapiens with 12 samples.

Results

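The MYC, MAX and MXD network is a family of proteins with a basic helix-loop-helix leucine zipper that compete for MAX and for the same short DNA element. It was examined here through the transcripts of 9 genes, MYC, MAX, MXD1, MXD3, MXD4, MXI1, MNT, MGA and MLX, which were picked by their symbols from the 19447 gene symbols of the count table. All 9 were present in the table, and all 9 passed the filter on low counts in every comparison. The measurement was mRNA sequencing of 12 libraries in 4 groups of 3. Untreated K562, a line grown from human chronic myeloid leukemia with the BCR-ABL fusion, formed the first group. The K562+L group was K562 given 6 µM of the alkaloid lycorine. K562/IM is the imatinib-resistant line that the study raised from K562 by stepwise exposure and maintained in 5 µM imatinib, and the group labelled K562/IM+L was K562/IM given 6 µM lycorine. The exposure time before RNA harvest was not given in the sources used here, and each line is 1 derivation. The labels do not say that the 3 libraries of a group came from separate cultures, so the p-values below measure the spread between these samples, which may be technical.

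Total counts ran from 75093844 to 107344598 per library. The group labelled K562/IM+L did not sit with K562/IM. Over the 1272 genes that separated the lines by a log2 fold change of at least 2, placing K562 at 0 and K562/IM at 1, their median positions were 0.118, 0.119 and 0.189, whereas the K562+L libraries lay between 0 and 0.0137. Because of this they are named below as labelled libraries only, no direction found with them is firmer than their label, and they were compared with both K562/IM and K562. Hemoglobins and other erythroid markers, which K562 is known to express, were detected in every group. Their 12 genes summed to 7283 to 9936 counts per 1000000 (CPM) in K562, 4797 to 5567 in K562+L, 2805 to 3007 in K562/IM and 40542 to 57333 in the labelled libraries, and none of the 12 was at 0 in all libraries of any group. The share of counts from genes with a longest transcript over 8 kb also varied, from 5.77 to 8.21% in K562, 8.26 to 10.1% in K562+L, 9.41 to 9.96% in K562/IM and 5.49 to 7.98% in the labelled libraries. It is given again below beside MXD1, MXD3, MXD4 and MGA, which ran with it or opposite to it within K562, K562+L and the labelled libraries. Values are CPM on the TMM scale of all 12 libraries unless stated otherwise, and p-values are from the quasi-likelihood test of edgeR, adjusted by Benjamini-Hochberg over all genes tested, with a gene called at an adjusted p under 0.05.

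MYC binds DNA only as a dimer with MAX, and the dimer recognizes the E-box CACGTG and activates genes of ribosome production, nucleotide synthesis and glycolysis. MXD1, MXD3, MXD4 and MXI1 dimerize with the same MAX, occupy the same element and bring SIN3 and histone deacetylases to it, and most of them, MXD3 apart, are known to rise as cells leave the cycle and differentiate. MNT and MGA are larger MAX partners that also repress, MGA as part of a polycomb complex, and MLX is a MAX-like partner for MLXIP and MLXIPL, which respond to glucose, and for some MXD proteins. In chronic myeloid leukemia cells MYC is known to act downstream of BCR-ABL.

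Because every dimer of the network reads the E-box, the upstream sequences of the members other than MYC, whose start was not searched here, were examined for it. The letters CACGTG, which read the same on both strands, were looked for in the 250 bases before each RefSeq start (GRCh38.p14). They were present in 6.345% of the 35116 promoters in the reference table and in 7.997% of the 16156 promoters that belong to genes tested here. Of 13 starts of network genes 3 held one, those of MXD4, MNT and MLX. The windows below show that element in capitals with its flanks, outside annotated exons and read 5′ to 3′ on the strand of the gene. They are from chr4:2262315-2262359 (minus strand, E-box 238 bases before the start) for MXD4, chr17:2401221-2401280 (minus strand, 193 bases) for MNT and chr17:42567023-42567067 (plus strand, 50 bases) for MLX.
MXD4: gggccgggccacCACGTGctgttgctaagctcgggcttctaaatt
MNT: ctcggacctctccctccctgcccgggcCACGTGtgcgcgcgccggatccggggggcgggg
MLX: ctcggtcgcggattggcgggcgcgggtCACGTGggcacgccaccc

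Of the target genes listed as activated by MYC, 10 of 48 starts (20.83%) held the letters. Windows are shown for LDHA, the lactate dehydrogenase of glycolysis, and APEX1, a DNA repair endonuclease, because these targets moved in opposite directions in the libraries labelled K562/IM+L, as described further on. They lie at chr11:18394351-18394387 (plus strand, 185 bases before the start) and chr14:20455155-20455190 (plus strand, 44 bases). A match of letters is a description of the sequence and no measurement of binding.
LDHA: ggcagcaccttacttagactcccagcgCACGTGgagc
APEX1: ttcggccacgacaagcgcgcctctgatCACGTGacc

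MYC, the activator of the network, was higher after lycorine in K562 and lower in the libraries labelled K562/IM+L. MYC lies on chromosome 8 of GRCh38 from 127735434 to 127741434. The 3 K562 libraries held 123, 152 and 149 CPM, and the 3 K562+L libraries held 239, 248 and 222. K562/IM held 130, 122 and 136, and the labelled libraries held 61.6, 57.1 and 51.5. Every K562+L library was above every other library, every labelled library was below every other library, and K562 and K562/IM overlapped. The mean ± SD of 3 libraries was 141 ± 15.7 CPM in K562, 236 ± 13.2 in K562+L, 129 ± 7.20 in K562/IM and 56.7 ± 5.06 in the labelled libraries. As in all these bulk samples, fewer cells of a type and less RNA per cell cannot be told apart. K562+L against K562 gave a rise of 0.74 for MYC on the log2 scale (standard error, SE, 0.10, adjusted p = 0.00185, edgeR). In the labelled libraries the log2 fold change was -1.16 against K562/IM (SE 0.087, adjusted p = 2.17e-05) and -1.33 against K562 (SE 0.12, adjusted p = 0.000106). Between the untreated lines the log2 fold change was -0.13 (SE 0.097, adjusted p = 0.301), which did not pass the test. Without K562 replicate 1 that last comparison passed the test, with a log2 fold change of -0.25 (adjusted p = 0.0122).

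MAX, the partner that MYC and the antagonists share, was lower in the labelled libraries than in either line. It held 60.9, 60.7 and 67.2 CPM in K562, 55.5, 62.0 and 64.5 in K562+L, 55.3, 56.2 and 54.9 in K562/IM and 40.3, 38.0 and 32.3 in the labelled libraries. The labelled libraries lay below all the others, and the remaining groups overlapped with their neighbours in order of level. The log2 fold change was -0.56 against K562/IM (SE 0.090, adjusted p = 0.001) and -0.79 against K562 (SE 0.11, adjusted p = 0.000925). It was -0.05 for K562+L against K562 (adjusted p = 0.677) and -0.18 for K562/IM against K562 (adjusted p = 0.0635), and the last of these passed with DESeq2 (adjusted p = 0.0328) and without K562 replicate 1 (-0.24, adjusted p = 0.0209). MAX lies on chromosome 14 from 65006174 to 65102695.

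**Figure D1:**
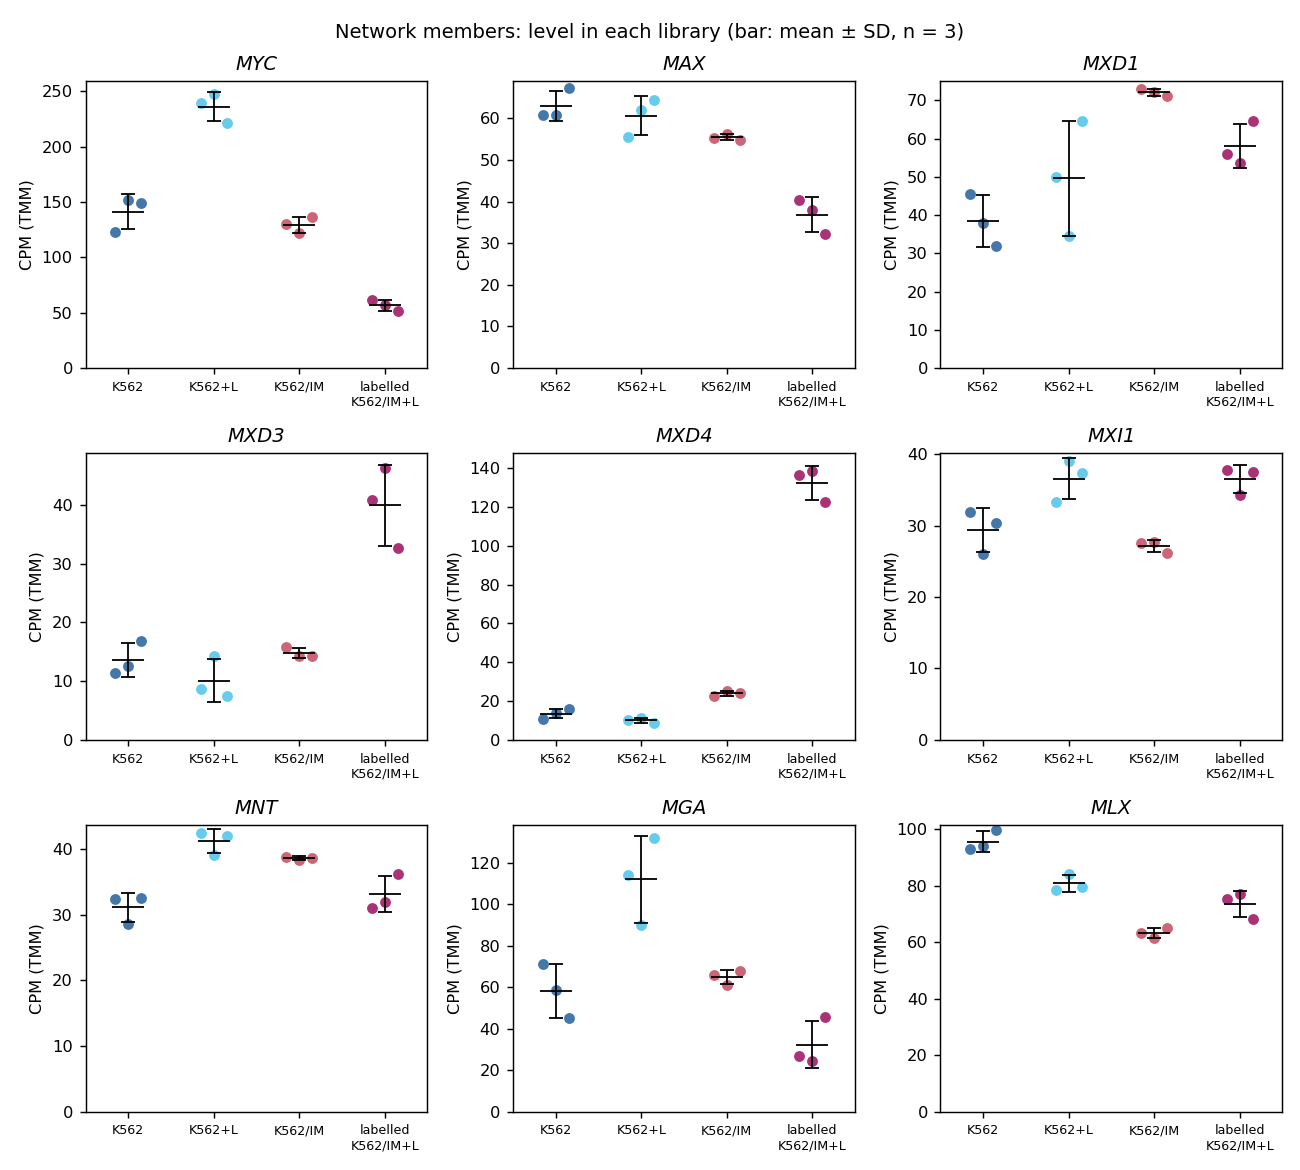
Level of each of the 9 network genes in CPM (TMM scale) in each of the 12 libraries, by group, with points for libraries and bars for the mean ± SD (n = 3); each vertical axis starts at 0 and has its own scale. MYC was highest in K562+L (222 to 248 CPM) and lowest in the labelled libraries (51.5 to 61.6), and MXD4 reached 122 to 139 CPM in the labelled libraries against at most 24.9 elsewhere.

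Among the antagonists, MXD4 had the widest spread of group means of all the members, 3.72 on the log2 scale between the labelled libraries and K562+L. MXD4 lies on chromosome 4 from 2247432 to 2262294. It held 11.0, 13.9 and 15.8 CPM in K562, 10.4, 11.2 and 8.72 in K562+L, 22.7, 24.9 and 24.3 in K562/IM and 136, 139 and 122 in the labelled libraries. The labelled libraries were far above the rest, the K562/IM libraries lay between them and K562, and K562 and K562+L overlapped. Against K562/IM, MXD4 was 5.63-fold higher in the labelled libraries (log2 fold change 2.49, SE 0.079, adjusted p = 4.95e-07, edgeR). Against K562 it was 9.66-fold higher (log2 fold change 3.27, SE 0.15, adjusted p = 1.02e-05). K562/IM exceeded K562 by a log2 fold change of 0.82 (SE 0.14, adjusted p = 0.0014), and K562+L against K562 gave -0.42 (SE 0.16, adjusted p = 0.0679). That value passed the test without K562 replicate 1 (-0.56, adjusted p = 0.0116). It also passed with DESeq2 (adjusted p = 0.0394) and in the edgeR fit of all 12 libraries (adjusted p = 0.0218). Within K562, K562+L and the labelled libraries MXD4 ran opposite to the share of counts from transcripts over 8 kb. With that share as a covariate, chosen after seeing the data, MXD4 gave 1.44 in K562/IM (adjusted p = 0.000779) and 0.059 in K562+L (adjusted p = 0.804), both against K562. The labelled libraries then gave 2.26 against K562/IM (adjusted p = 1.75e-05) and 3.22 against K562 (adjusted p = 4.36e-07).

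MXD3, an MXD protein known from proliferating cells, was higher in the labelled libraries. It held 11.3, 12.6 and 16.9 CPM in K562, 8.65, 14.3 and 7.43 in K562+L, 15.8, 14.4 and 14.4 in K562/IM and 40.8, 46.4 and 32.6 in the labelled libraries, which did not overlap the others, whereas each of the other groups overlapped its neighbour in level. Its log2 fold change was 1.45 against K562/IM (SE 0.13, adjusted p = 5.66e-05) and 1.54 against K562 (SE 0.20, adjusted p = 0.000563). K562+L against K562 gave -0.43 (SE 0.26, adjusted p = 0.218) and passed without K562+L replicate 2 (-0.76, adjusted p = 0.0307). K562/IM against K562 gave 0.12 (adjusted p = 0.51) and passed without K562 replicate 3 (0.30, adjusted p = 0.0461). MXD3 lies on chromosome 5 from 177301461 to 177312757, and its exons overlap 926 bases of RAB24 on the same strand and 1158 bases of PRELID1 on the other. How shared reads were counted is not given in the sources used here. Against K562/IM, RAB24 changed by 0.50 (adjusted p = 0.00415) and PRELID1 by -0.50 (adjusted p = 0.0038) on the log2 scale. Mean CPM of RAB24, PRELID1 and MXD3 was 49.3, 174 and 14.8 for K562/IM. The labelled group had means of 68.6, 121 and 39.9 CPM in that order. Whether shared reads contributed to the change of MXD3 was not tested. In K562+L against K562 RAB24 (-0.57, adjusted p = 0.0131) and PRELID1 (-0.45, adjusted p = 0.0411) fell by as much as the -0.43 of MXD3, and against K562 PRELID1 fell by 1.48 in the labelled libraries (adjusted p = 0.000333). MXD3 ran opposite to the share of counts from transcripts over 8 kb within K562, K562+L and the labelled libraries. With that share as a covariate it gave 0.88 in the labelled libraries against K562/IM (adjusted p = 0.00631), 1.44 against K562 (adjusted p = 1.09e-05) and 0.74 in K562/IM against K562 (adjusted p = 0.0362).

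MXD1, known for its induction when blood cells mature, was highest in K562/IM. The libraries of K562 held 45.5, 38.0 and 31.8 CPM, those of K562+L 49.9, 34.5 and 64.5, those of K562/IM 72.9, 72.3 and 71.2, and the labelled ones 56.0, 53.5 and 64.6. K562/IM lay above every other group, the labelled libraries lay above K562, and K562+L overlapped both K562 and the labelled libraries. MXD1 on chromosome 2 (69897688 to 69942945) was higher in K562/IM than in K562 by a log2 fold change of 0.91 (SE 0.13, adjusted p = 0.000625). Within K562, K562+L and the labelled libraries the order of MXD1 was that of the share of counts from transcripts over 8 kb, and with the share as a covariate, chosen after seeing the data, the value was 0.37 (adjusted p = 0.0601) and the call was lost. The labelled libraries exceeded K562 by 0.57 (SE 0.14, adjusted p = 0.0121) and were below K562/IM by -0.29 (SE 0.087, adjusted p = 0.0203). The last call was lost in 5 of the 6 fits that left out 1 library, all but the one without the labelled replicate 3, with log2 fold changes of -0.30 to -0.23. It was also lost in the edgeR fit of all 12 libraries (-0.31, adjusted p = 0.171) and with the covariate, where the sign turned (0.055, adjusted p = 0.677). In K562+L against K562 the log2 fold change of MXD1 was 0.37 (SE 0.22, adjusted p = 0.229).

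MXI1, the other MXD member, was in a narrow range, from 26.0 to 39.0 CPM over all libraries. K562 held 31.9, 26.0 and 30.3 CPM, K562+L held 33.4, 39.0 and 37.4, K562/IM held 27.6, 27.7 and 26.1, and the labelled libraries held 37.8, 34.3 and 37.6. K562+L and the labelled libraries were each above every library of K562 and of K562/IM, overlapping each other. Against K562/IM the labelled libraries gave a log2 fold change of 0.46 (SE 0.075, adjusted p = 0.00119), and against K562 of 0.29 (SE 0.11, adjusted p = 0.0496). K562+L against K562 gave 0.31 (SE 0.11, adjusted p = 0.0542), just above the threshold. Without K562 replicate 1 it passed (0.37, adjusted p = 0.0319). It also passed with DESeq2 (adjusted p = 0.0326) and in the edgeR fit of all 12 libraries (adjusted p = 0.018). The call for the labelled libraries against K562 was lost in 5 of the 6 fits that left out 1 library, all but the one without K562 replicate 1. MXI1 lies on chromosome 10 from 110207605 to 110287365.

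MNT, a broadly expressed MAX partner and repressor, rose in K562+L and was higher in K562/IM than in K562. It held 32.3, 28.6 and 32.5 CPM in K562, 42.4, 39.1 and 42.0 in K562+L, 38.8, 38.3 and 38.6 in K562/IM and 31.1, 32.0 and 36.2 in the labelled libraries. K562+L and K562/IM each lay above K562 in every library, and K562 overlapped the labelled libraries. The log2 fold changes were 0.40 for K562+L (SE 0.091, adjusted p = 0.0119) and 0.31 for K562/IM (SE 0.079, adjusted p = 0.0112), both against K562. Both calls were lost without K562 replicate 2 (adjusted p = 0.0647 and 0.0532). The labelled libraries gave -0.19 against K562/IM (adjusted p = 0.0698) and 0.07 against K562 (adjusted p = 0.596), and the first passed without labelled replicate 3 (-0.26, adjusted p = 0.0032). MNT lies on chromosome 17 from 2384060 to 2401118.

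MGA, the largest MAX partner, followed the share of counts from long transcripts as well as the groups. MGA lies on chromosome 15 from 41621224 to 41773081, and its longest annotated transcript has 14439 bases. In K562 it held 71.0, 58.7 and 45.1 CPM in libraries whose share from transcripts over 8 kb was 8.21, 6.76 and 5.77%. In the labelled libraries it held 26.8, 24.7 and 45.4 CPM at shares of 5.85, 5.49 and 7.98%. It held 114, 90.2 and 132 CPM in K562+L and 65.9, 61.2 and 67.9 in K562/IM. The K562+L libraries were above all others, and within each group the order of MGA was the order of the long-transcript share. The log2 fold change of MGA was 0.94 in K562+L against K562 (SE 0.19, adjusted p = 0.0076) and -0.98 in the labelled libraries against K562/IM (SE 0.22, adjusted p = 0.00594). Against K562 the labelled libraries gave -0.87 (SE 0.26, adjusted p = 0.0241) with overlapping groups, a call lost without K562 replicate 1 or 2 or labelled replicate 1 or 2. With the share as a covariate, an alternative chosen after seeing the data, MGA gave 0.30 in K562+L (adjusted p = 0.0795) and 0.15 in the labelled libraries against K562/IM (adjusted p = 0.28). In K562/IM against K562 it turned from 0.16 (adjusted p = 0.41) to -0.56 (adjusted p = 0.011). In these 3 comparisons the shares of the groups did not overlap, so the share and the group cannot be told apart. In the labelled libraries against K562 the shares overlapped, and with the covariate MGA was still lower (-0.76, adjusted p = 5.17e-05).

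**Figure D2:**
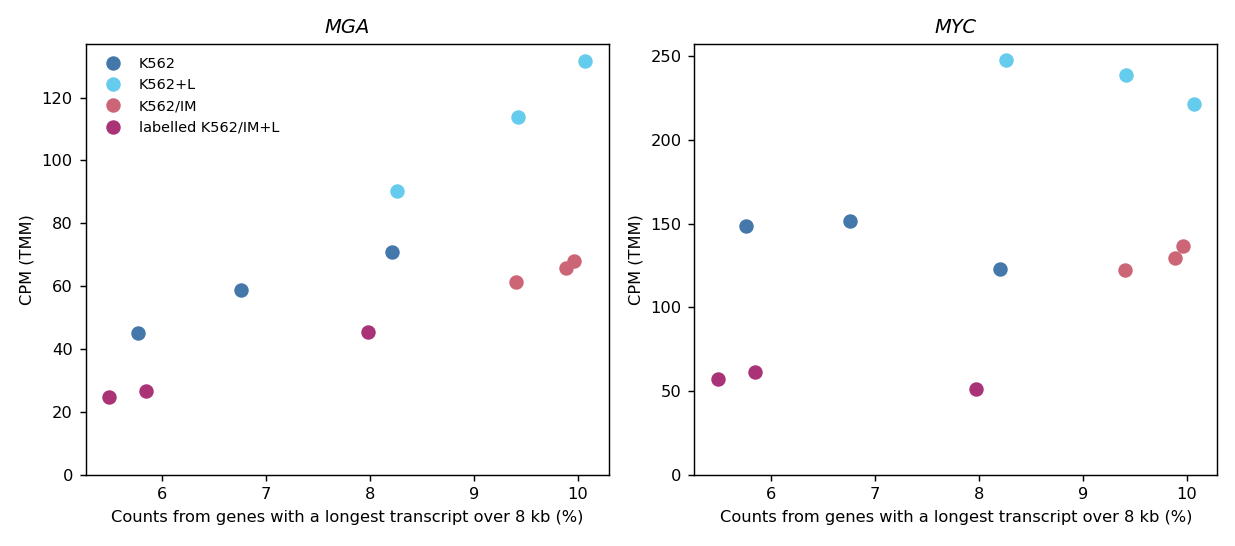
MGA (left) and MYC (right) in CPM against the percentage of a library's counts that came from genes with a longest transcript over 8 kb, 1 point per library, coloured by group. MGA ran with the share within K562 (45.1 to 71.0 CPM at 5.77 to 8.21%) and within the labelled libraries (24.7 to 45.4 CPM at 5.49 to 7.98%), while MYC separated K562+L and the labelled libraries from the rest at like shares.

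MLX, which pairs with the glucose-responsive MLXIP and MLXIPL, differed in level between every pair of groups without overlap. It held 92.9, 94.3 and 99.8 CPM in K562, 78.7, 84.3 and 79.8 in K562+L, 75.2, 77.2 and 68.3 in the labelled libraries and 63.2, 61.6 and 65.2 in K562/IM. MLX was lower than in K562 both in K562/IM (log2 fold change -0.60, SE 0.068, adjusted p = 0.00023) and in the labelled libraries (-0.40, SE 0.088, adjusted p = 0.00718). The labelled libraries exceeded K562/IM by 0.24 (SE 0.071, adjusted p = 0.0179), and K562+L was below K562 by -0.24 (SE 0.081, adjusted p = 0.0459). The K562+L call was lost in 5 of the 6 fits that left out 1 library, all but the one without K562 replicate 1, and the call against K562/IM in 4 of 6, those without K562/IM replicate 1 or 2 or labelled replicate 1 or 2. MLX lies on chromosome 17 from 42567068 to 42573239 and overlaps 770 exon bases of PSMC3IP on the other strand. PSMC3IP moved the other way from MLX in K562/IM against K562 (log2 fold change 0.60, adjusted p = 0.000512) and in the labelled libraries against K562/IM (-1.14, adjusted p = 0.000229), and the same way in the labelled libraries against K562 (-0.58, adjusted p = 0.0149).

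Counted over the network, lycorine in K562 changed 4 of 9 members, where 37.3% of the 12927 genes tested were called. MYC, MNT and MGA were higher, MLX was lower, and none had an absolute log2 fold change over 1, a size passed with a call by 6.39% of genes. Of all genes 18.2% were called higher and 19.0% lower. In K562/IM against K562, 4 of 9 were called against 57.1% of 13406 genes, with MXD1, MXD4 and MNT higher and MLX lower, again none beyond a log2 fold change of 1 (19.1% of genes). Here 30.1% of all genes were called higher and 27.1% lower. In the labelled libraries against K562/IM, 8 of 9 were called against 66.8% of 13727 genes. MXD3, MXD4, MXI1 and MLX were higher, MYC, MAX, MXD1 and MGA were lower, and MYC, MXD3 and MXD4 were beyond 1 (28.5% of genes). All genes split into 33.2% higher and 33.6% lower. Against K562, 8 of 9 were called against 56.0% of 13307 genes, and MXD1 and MLX changed sides relative to the comparison with K562/IM. The higher were MXD1, MXD3, MXD4 and MXI1 (28.2% of all genes) and the lower MYC, MAX, MGA and MLX (27.8%), and MYC, MXD3 and MXD4 were again beyond 1 (23.8%). Of the calls over all genes 50.4% were in the higher direction, and 61.3% with upper-quartile factors. These comparisons share control libraries, so their counts are not independent of each other. Groups did not overlap for 5 members in K562+L against K562 (51.5% of genes), 5 in K562/IM against K562 (66.6%), 9 in the labelled libraries against K562/IM (73.4%) and 7 against K562 (63.6%). With shares of this size among all genes, the number of members called does not set the network apart.

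**Figure D3:**
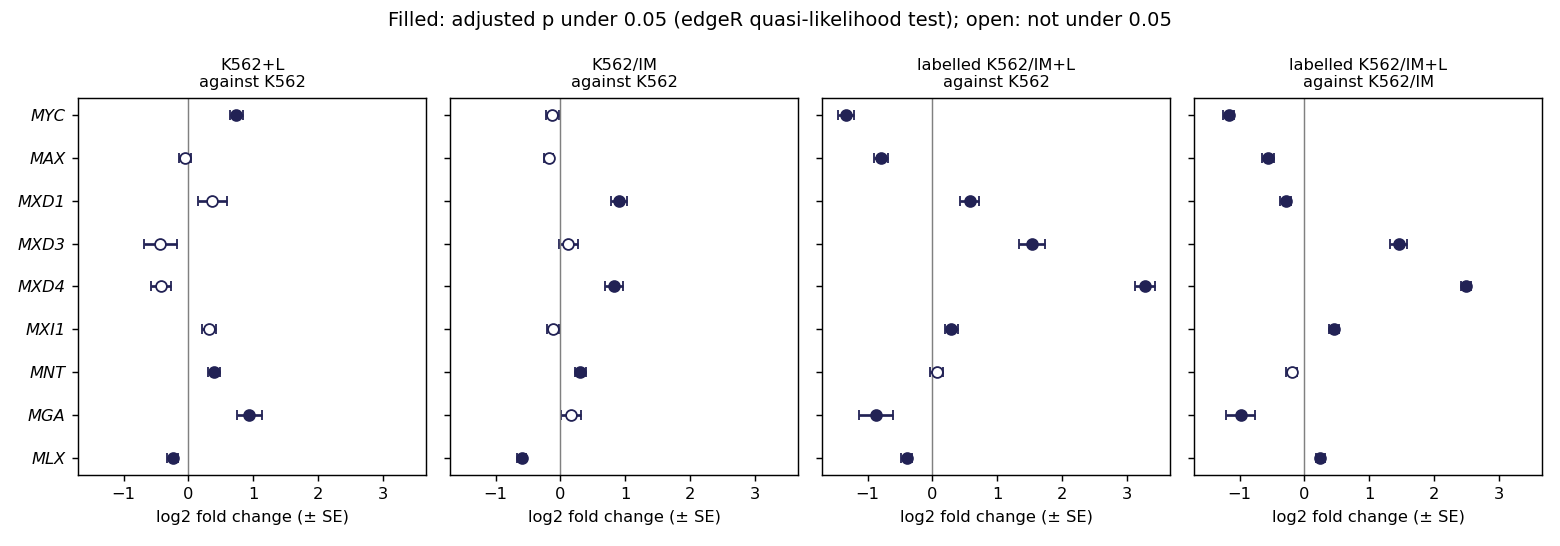
Log2 fold change (± SE) of the 9 members in the 4 comparisons, with filled points for an adjusted p under 0.05 in edgeR's quasi-likelihood test and open points for the rest. MYC lay at 0.74 in K562+L against K562 and at -1.16 and -1.33 in the labelled libraries, and MXD4 lay at 2.49 and 3.27 there.

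The lycorine effects as labelled differed between the lines for 8 of 9 members (interaction over all 12 libraries, 61.7% of 13995 genes, 29.9% in the higher and 31.7% in the lower direction). For MYC the effect in the K562/IM line minus that in K562 was -1.93 on the log2 scale (SE 0.14, adjusted p = 3.48e-07), for MXD4 2.89 (SE 0.18, adjusted p = 1.44e-07) and for MXD3 1.86 (SE 0.32, adjusted p = 0.000379). The difference exceeded 1 in size for MYC, MXD3, MXD4 and MGA, as for 33.7% of genes. MXI1 was the member not called (0.12, adjusted p = 0.454). With the long-transcript share as a covariate, MXD3 gave 0.38 (adjusted p = 0.406) and MGA -0.26 (adjusted p = 0.176). Only MYC, MAX and MXD4 were then called. Since the labelled libraries lay near K562 over the genes that separate the lines, this contrast rests on their label.

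Levels of different genes can be compared only per length, and for this each CPM was divided by the longest annotated transcript. On that scale MYC stood at 59.6 ± 6.64 (SD, n = 3) CPM per kb in K562, 99.7 ± 5.59 in K562+L, 54.7 ± 3.04 in K562/IM and 24.0 ± 2.14 in the labelled libraries. The summed level of the 6 antagonists MXD1, MXD3, MXD4, MXI1, MNT and MGA was 34.9 ± 1.72, 42.4 ± 2.55, 45.4 ± 0.436 and 80.0 ± 2.48 in the same order. By longest transcript, MYC exceeded the antagonists together in K562, K562+L and K562/IM, with ratios of 1.71 ± 0.261, 2.37 ± 0.266 and 1.21 ± 0.0718, and was below them in the labelled libraries, at 0.299 ± 0.0214. Divided by the median transcript length, the ratios were 1.26, 1.61, 1.01 and 0.298, and in K562/IM MYC was below the antagonists in 2 of the 3 libraries (0.994, 0.956 and 1.07). The ratio is a description of transcripts and carries no test.

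Within the MXD genes the composition shifted. Per kb of the longest transcript, MXD4 made up 13.5 ± 2.35% of MXD1, MXD3, MXD4 and MXI1 in K562 (SD, n = 3), 9.49 ± 1.50% in K562+L, 17.8 ± 0.987% in K562/IM and 45.8 ± 0.664% in the labelled libraries. By longest transcript MXI1 was the largest of the 4 in K562 (34.3%) and K562+L (40.0%), MXD1 in K562/IM (38.9%) and MXD4 in the labelled libraries. That order, and the percentages of MXD4 above, depended on the length used. Per kb of the median transcript MXI1 was the largest in every group, at 30.5 CPM per kb against 12.9 for MXD1 in K562/IM, and at 41.1 against 34.1 for MXD3 and 32.6 for MXD4 in the labelled libraries. MYC was 2.99, 5.21, 3.11 and 2.06 times MAX by longest transcript in K562, K562+L, K562/IM and the labelled libraries. By median transcript MYC stood at 103, 173, 94.8 and 41.5 CPM per kb and MAX at 84.3, 81.3, 74.3 and 49.4 in that order, so that MYC was below MAX in the labelled libraries on this scale.

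**Figure D4:**
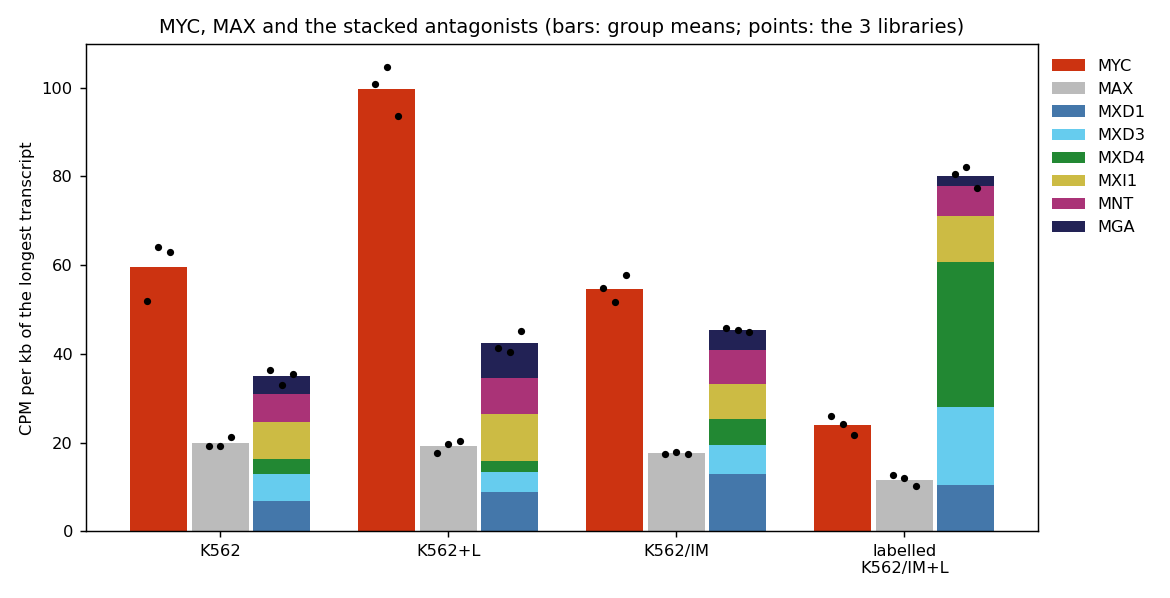
Level per kb of the longest transcript (CPM per kb, axis from 0) of MYC, of MAX and of the 6 antagonists stacked, as group means with the 3 libraries of MYC, MAX and the antagonist sum as points. MYC exceeded the stack in K562 (59.6 against 34.9), K562+L (99.7 against 42.4) and K562/IM (54.7 against 45.4), and was below it in the labelled libraries (24.0 against 80.0), where MXD4 was the largest segment at this length. Per median transcript the K562/IM libraries lay on both sides of equality.

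Of the remaining genes of the family, MYCL, a MYC relative that also pairs with MAX, fell with lycorine in K562 (log2 fold change -1.26, SE 0.13, adjusted p = 0.000692). It was higher in K562/IM than in K562 by 0.84 (SE 0.090, adjusted p = 0.000174), and the labelled libraries gave -0.63 against K562/IM (SE 0.094, adjusted p = 0.000714). MYCN was at 0 counts in all K562, K562+L and labelled libraries, at most 0.0833 CPM in K562/IM, and was not tested. MLXIPL, the carbohydrate-responsive partner of MLX, held 17.5, 20.6 and 23.1 CPM in K562, 14.1, 14.4 and 12.2 in K562+L, 9.77, 8.31 and 9.20 in K562/IM and 80.2, 93.9 and 77.0 in the labelled libraries, with no overlap between any groups. Its log2 fold change was 3.23 against K562/IM (SE 0.11, adjusted p = 6.22e-07) and 2.02 against K562 (SE 0.14, adjusted p = 3.49e-05). It fell in K562+L (-0.59) and was lower in K562/IM than in K562 (-1.17). MLXIP was higher by 0.56 against K562/IM and by 0.72 against K562 (adjusted p = 0.000654 and 0.000424).

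All 3 genes listed as targets of MLX complexes were called in the labelled libraries, beside 66.8% of all genes against K562/IM and 56.0% against K562. PKLR, the pyruvate kinase of liver and red cells, held 461, 451 and 428 CPM there against 31.0, 29.0 and 28.4 in K562/IM and 69.8, 78.3 and 82.7 in K562, with a log2 fold change of 3.95 against K562/IM (adjusted p = 1.05e-07). ARRDC4, an arrestin-like regulator of glucose uptake, rose by 1.48 (adjusted p = 6.73e-06). HK2, the hexokinase of glycolysis, held 3.59, 3.27 and 4.38 CPM there against 84.2, 85.1 and 89.8 in K562/IM, with a log2 fold change of -4.50 (adjusted p = 3.37e-07). The targets thus moved in both directions against K562/IM, where MLXIPL and MLX were higher. That call of MLX was lost in some fits that left out 1 library, and MLX was lower against K562 (-0.40). In K562+L against K562, ARRDC4 (0.75) and HK2 (0.59) rose and PKLR (-0.84) fell, and in K562/IM against K562 ARRDC4 (0.53) rose and PKLR (-1.38) fell.

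Targets that MYC is known to activate, 41 of which were tested, were mostly lower wherever K562/IM or the labelled libraries were compared. In K562+L against K562, 15 were higher and 4 lower with a median log2 fold change of 0.14, beside 18.2% and 19.0% of all genes. NOP58 (0.66) and RRP12 (0.80), both of ribosome assembly, rose with the smallest p, and HSPE1, a mitochondrial chaperonin (-0.81), and EIF5A, a translation factor (-0.40), fell. The split depended on single libraries, with 11 higher and 1 lower without K562+L replicate 3 and 16 higher and 7 lower without K562 replicate 1.

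In K562/IM against K562, 38 of the 41 were lower and 0 higher by edgeR, 0 higher also at an unadjusted p under 0.05 and by DESeq2, with a median log2 fold change of -0.73 against 0.04 over all genes, of which 27.1% were called lower. NPM1, a nucleolar chaperone of ribosome assembly, fell from 2947, 3065 and 3125 CPM in K562 to 1585, 1691 and 1633 in K562/IM (log2 fold change -0.90, adjusted p = 1.27e-05). CCND2, a cyclin of the G1 phase, was near the floor in K562/IM, at 0.623, 0.448 and 0.299 CPM against 117 to 128 in K562 (log2 fold change -8.11, SE 0.22, adjusted p = 3.82e-07). The MYC transcript did not pass the test in this comparison (-0.13). Of the antagonists, MXD1, MXD4 and MNT were called higher, and MXD3, MXI1 and MGA were not called. The calls of MXD1 and MNT were lost with the long-transcript share as a covariate. A link between these transcripts and the fall of the list was not tested. The number of the 41 called lower was 35 to 40 over the alternative settings.

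In the labelled libraries against K562/IM, 32 of the 41 were lower and 3 higher (6 higher without labelled replicate 3, median -0.85, with 33.6% of all genes lower), and against K562 38 were lower and 0 higher by edgeR (median -1.71, with 27.8% of all genes lower, and 1 higher by DESeq2 and at an unadjusted p under 0.05). LDHA held 242, 264 and 229 CPM against 886, 953 and 965 in K562/IM (log2 fold change -1.90, adjusted p = 1.36e-06) and 1362, 1373 and 1457 in K562. PAICS, of purine synthesis, fell by 1.45 on the log2 scale against K562/IM (adjusted p = 1.37e-06), and NOLC1, a nucleolar protein, fell by 2.35 and LDHA by 2.53 against K562 (both adjusted p = 7.93e-06). APEX1 rose to 210, 204 and 183 CPM from 106, 118 and 116 in K562/IM (log2 fold change 0.83, adjusted p = 7.65e-05), and CCND2 rose to 27.9, 26.9 and 29.1 CPM (log2 fold change 5.98, adjusted p = 1.32e-06), which is below the K562 libraries. LDHA and APEX1, which both carry the letters CACGTG shown above, thus moved in opposite directions against K562/IM. Against K562, where 0 of the 41 were higher by edgeR, APEX1 was not called higher.

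**Figure D5:**
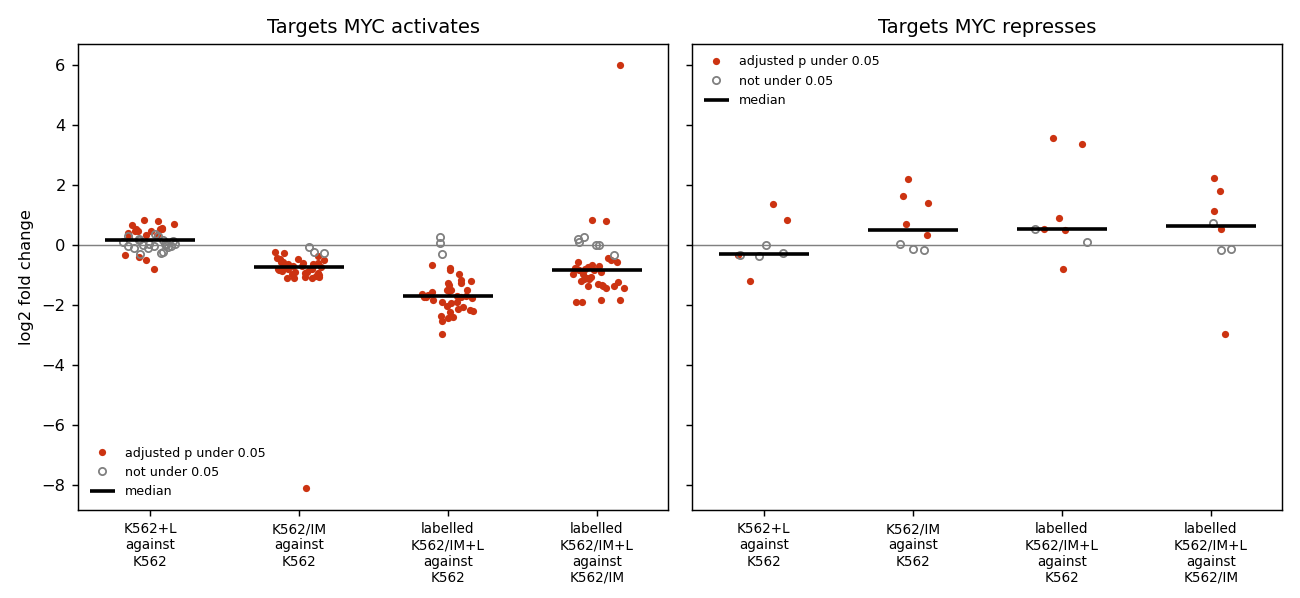
Log2 fold change of each tested gene of the lists of targets that MYC activates (left, 41 genes) and represses (right, 8 genes) in the 4 comparisons, with filled points for an adjusted p under 0.05 (edgeR) and a bar at the median. The activated targets had medians of 0.14 in K562+L against K562, -0.73 in K562/IM against K562, -1.71 in the labelled libraries against K562 and -0.85 against K562/IM; the outlying point at -8.11 and that at 5.98 are CCND2.

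Targets that MYC is known to repress were fewer, with 8 of 10 tested. BTG2, an antiproliferative gene, rose in all 4 comparisons, by 1.34 in K562+L (adjusted p = 0.000141), 1.38 in K562/IM (adjusted p = 1.11e-05), 2.23 in the labelled libraries against K562/IM (adjusted p = 3.29e-06) and 3.57 against K562 (adjusted p = 7.96e-06) on the log2 scale. CDKN1A, the cell cycle inhibitor p21, did not go with it. It rose in K562+L (0.82) and in K562/IM (2.20), and fell in the labelled libraries against K562 (-0.79) and against K562/IM, with 6.78, 8.46 and 6.13 CPM against 57.2, 57.3 and 54.3 (log2 fold change -2.96, adjusted p = 1.64e-06). NDRG1, a stress and differentiation gene, was higher in the labelled libraries by 1.78 against K562/IM (adjusted p = 1.87e-06) and by 3.37 against K562 (adjusted p = 7.76e-06). TXNIP, a brake on glucose uptake (-1.20), and CDKN2C, a cyclin kinase inhibitor (-0.35), fell in K562+L. Over the list, 2 were higher and 2 lower in K562+L. The number lower there was 4 with DESeq2 or upper-quartile factors and 5 in the fit of all 12 libraries. It was 1 without K562 replicate 2, K562+L replicate 1 or K562+L replicate 3. In K562/IM 5 were higher and 0 lower, with 0 lower also by DESeq2 and at an unadjusted p under 0.05. There 1 was lower with the long-transcript share as a covariate or without K562 replicate 1. The labelled libraries had 4 higher and 1 lower against K562/IM, and 5 higher and 1 lower against K562. With the covariate 3 were higher and 3 lower in the labelled libraries against K562/IM. The shares of all genes called higher and lower in these comparisons, in the same order, were 18.2% and 19.0%, 30.1% and 27.1%, 33.2% and 33.6%, and 28.2% and 27.8%.

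Transcripts of the proteins that MYC and its antagonists recruit were counted in the same way. The counts here and in the lists that follow stand beside 18.2% of all genes higher and 19.0% lower in K562+L, 30.1% and 27.1% in K562/IM, and 33.2% and 33.6% in the labelled libraries against K562/IM. Of 16 partners of repressor complexes, 3 were higher and 2 lower in K562+L, among them the histone deacetylases HDAC2 (0.37) and HDAC1 (-0.24), the SIN3 subunit SAP30 (0.35) and the heterochromatin protein CBX3 (-0.32). In K562/IM against K562, 2 were higher, SIN3B (0.40) and NCOR1 (0.44), and 8 lower, led by CBX3 (-0.61) and L3MBTL2 (-0.60). The labelled libraries held 3 higher and 7 lower against K562/IM. RING1, a polycomb ubiquitin ligase, rose by 1.01 (adjusted p = 7.17e-05) and HDAC1 by 0.28, and PCGF6, the polycomb partner of MGA, fell by 0.87 (adjusted p = 5.59e-05) and SIN3A, the scaffold of the MXD complexes, by 0.58 on the log2 scale.

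Of 15 partners of activator complexes, 6 were higher and 1 lower in K562+L, where EP300, a histone acetyltransferase, rose by 1.09 (adjusted p = 0.00376), HCFC1, a MYC cofactor, rose by 0.62 (adjusted p = 0.00336) and CDK9, the elongation kinase, fell by 0.38. In K562/IM against K562, 5 were higher, led by ZBTB17 (0.54) and EP400 (0.64), and 5 lower, led by ACTL6A (-0.40) and RUVBL1 (-0.41). Between the labelled libraries and K562/IM, 3 were higher, led by CDK9 (0.53) and KAT5 (0.29), and 10 lower. RUVBL1, an ATPase of chromatin remodelling, fell there by 1.19 (adjusted p = 8.32e-06) and CCNT1, the cyclin of CDK9, by 0.67.

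Among 13 genes that act on the stability of the MYC protein, 6 were higher and 2 lower in K562+L. USP36, a deubiquitinase that stabilizes MYC, rose by 0.53 (adjusted p = 0.00218) and the ubiquitin ligase gene TRIM32 by 0.78, and the ligase genes SKP2 (-0.30) and STUB1 (-0.51) fell. In K562/IM against K562, 3 were higher, led by TRIM32 (0.68) and FBXL14 (0.60), and 4 lower, led by AURKA (-0.85) and STUB1 (-0.83). The labelled libraries had 1 higher and 7 lower than K562/IM. AURKA, a kinase that protects MYC proteins, rose by 0.66 (adjusted p = 5.58e-05), while USP36 fell by 1.11 (adjusted p = 3.52e-05) and CIP2A, which shields MYC from a phosphatase, by 1.25 (adjusted p = 2.17e-05). Of 10 tested regulators of the MYC transcript, 3 were higher, led by CTCF (0.56) and FUBP1 (0.52), and 1 lower, YBX1 (-0.24), in K562+L. In K562/IM against K562, 0 were higher by edgeR, also at an unadjusted p under 0.05, and 6 lower, led by YBX1 (-0.62) and HNRNPD (-0.49). Against K562/IM, CTCF (0.68) and YBX1 (0.56) were higher in the labelled libraries and 5 lower, led by ELAVL1 (-0.38) and HNRNPD (-0.42). MYC protein was not analysed here.

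Other transcription factors that read E-boxes were also followed. BHLHE40, a repressor of the circadian system, rose in K562+L (0.40, adjusted p = 0.00758) and K562/IM (1.46, adjusted p = 3.36e-06) and fell in the labelled libraries against K562/IM (-1.93, adjusted p = 6.08e-07). BHLHE41, its close relative, changed by 2.51, 3.47 and -4.67 in these comparisons, from low levels of at most 3.82 CPM in any library. SREBF1, a regulator of lipid synthesis (-0.52 and -0.64), and USF1 (-0.55 and -0.47) fell in K562+L and in K562/IM. USF2 (0.89) and SREBF2 (0.56) rose in the labelled libraries against K562/IM. In all, 2 were higher and 2 lower of 11 tested in K562+L, 3 and 2 of 10 in K562/IM, and 4 and 5 of 10 in the labelled libraries.

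Cell type and proliferation markers moved in the same comparisons, and their part in the changes of the network was not tested. Of 12 erythroid markers, 12 were higher in the labelled libraries when set against K562/IM, led by SLC4A1, the red cell anion exchanger (12.95), and ALAS2, the first enzyme of heme synthesis (5.99), and 10 were higher against K562. SLC4A1 stood at 1000.2, 923 and 1030 CPM there against 3.61 to 5.07 in K562. It was near the floor in K562/IM, so the size of its log2 fold changes that involve K562/IM is uncertain. With at least 10 counts required in every library, 11 erythroid markers were tested in the comparisons with K562/IM. In K562+L 7 of 12 were lower, led by TFRC (-1.06) and HBZ (-1.13), and in K562/IM 11 of 12, led by HBZ (-2.96) and SLC4A1 (-5.12). With the long-transcript share as a covariate, 2 erythroid markers were higher and 2 lower in K562+L, and 0 were higher and 9 lower in K562/IM. In the labelled libraries against K562/IM that fit gave 11 higher and 0 lower. The 10 proliferation markers summed to 2794 to 2878 CPM in K562, 3151 to 3284 in K562+L, 2563 to 2592 in K562/IM and 1849 to 2003 in the labelled libraries. MCM2 (0.38) and MKI67 (0.69) led 3 that were higher in K562+L, where CCNB1 was lower (-0.30), but none was called in either direction without K562 replicate 2 or without K562+L replicate 1. TOP2A (0.49) was higher and 7 were lower in K562/IM, led by CCNB1 (-0.83) and BIRC5 (-0.51), and MCM5 (0.26) was higher and 4 were lower in the labelled libraries against K562/IM, led by CDK1 (-0.78) and TYMS (-0.46). For K562/IM the covariate gave 0 higher and 2 lower, and 4 were lower with upper-quartile factors, the replicate block or without K562 replicate 2. The call of MCM5 was lost without K562/IM replicate 1 or 2 or labelled replicate 1.

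Megakaryocyte and monocyte markers had their highest sums in K562/IM. The former summed to 194 to 215 CPM there against 7.67 to 9.77 in K562, and 3 of 4 tested were higher, led by ITGA2B (5.27) and ITGB3 (4.70). Of the 6 megakaryocyte markers, 2 were at 0 in all K562/IM libraries, 1 in all K562 libraries and 0 in all labelled libraries. Monocyte markers were also higher against K562 (4 of 5 tested, led by ITGAM, 4.41, and LYZ, 0.58) and summed to 166 to 174 CPM, against 109 to 115 in K562. The megakaryocyte and monocyte lists summed to 25.9 to 28.4 and 76.2 to 80.7 CPM in the labelled libraries, and to 8.50 to 8.62 and 108 to 127 CPM in K562+L.

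Across all 12 libraries, the genes whose pattern came closest to that of MYC were CBX6, VARS1, UHRF1, GNPNAT1 and H2BC11, with root mean square differences of centred log2 CPM of 0.13, 0.14, 0.14, 0.15 and 0.16 among 13994 genes compared. CBX6 stood at 47.1, 79.0, 42.0 and 19.7 CPM in K562, K562+L, K562/IM and the labelled libraries. The genes closest to MXD4 were CA1, SPACA9, COL18A1, SLC4A3 and RNF215, with differences of 0.15, 0.18, 0.19, 0.26 and 0.27. CA1, a carbonic anhydrase, stood at 46.1, 30.3, 62.5 and 414 CPM in the same order.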

How the data were processed

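RNA from 12 libraries was analysed, and samples were grouped by the line and treatment in their labels. The authors deposited whole-number counts per gene symbol without normalization. The submitters' processing notes name FastQC, STAR, StringTie, DESeq2 and hg38, and the counting tool's settings, strand and annotation are not given in the sources used here. Of the 23289 values from 1 to 25, 67.9% were multiples of 4 or 1 above one, against 52% of such whole numbers, so a unit of these counts may not be 1 sequenced fragment.

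Counts were analysed in R 4.3.3 with edgeR 4.0.16, limma 3.58.1 and DESeq2 1.42.0. Each comparison used its 6 libraries, filterByExpr (minimum count 10), TMM factors and edgeR's quasi-likelihood test. The interaction used all 12 libraries. With 3 against 3 an exact test cannot give a p under 0.1. Positions, exon overlaps and lengths were from GENCODE release 29 (GRCh38), matched for 19029 symbols and all 9 members. Sums and ratios over members were left untested. The lymphocyte marker list is not reported here.

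Members and gene lists were chosen with earlier results of these data known. All members were named, and from every other list the 2 lowest p-values in either direction for each comparison described, plus MYCN, MYCL, MLXIP and MLXIPL. Likeness was the root mean square difference of centred log2 CPM (prior count 1). APEX1 and LDHA were chosen for their printed windows after their values were seen. Alternatives covered DESeq2, other size factors and filters, a stricter threshold, division of counts by 4, a replicate block, a joint fit, each library left out and, chosen after seeing the data, the share from transcripts over 8 kb as a covariate. On simulated counts with 200 genes changed 2-fold, edgeR recovered 191 with 7 false calls for K562+L against K562 (12932 genes), 190 with 8 for the labelled libraries against K562/IM (13759 genes), 191 with 8 for K562/IM against K562 (13406 genes), 190 with 10 for the labelled libraries against K562 (13336 genes) and 185 with 7 for the interaction (13699 genes). The simulated counts had the same dispersion for every gene, equal numbers raised and lowered, and no differences in the long-transcript share. Far more genes were called in the real data, so these numbers do not give the error rate there.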

Additional observations from a re-analysis of the deposited data

Results flagged for a closer look

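The lycorine effects as labelled differed between the lines for 8 members in the interaction test over all 12 libraries. The effect in K562/IM minus that in K562, on the log2 scale, was -1.93 for MYC, -0.53 for MAX, -0.68 for MXD1, 1.86 for MXD3, 2.89 for MXD4, -0.62 for MNT, -1.95 for MGA and 0.46 for MLX. Adjusted p-values from edgeR's quasi-likelihood test were 3.48e-07 (MYC), 0.00341 (MAX), 0.0447 (MXD1), 0.000379 (MXD3), 1.44e-07 (MXD4), 0.000559 (MNT), 0.000277 (MGA) and 0.00115 (MLX), and 61.7% of all genes tested were called. The call of MXD1 was lost in 9 of the 12 fits that left out 1 library. With the long-transcript share as a covariate, only the calls of MYC, MAX and MXD4 were kept. MXD1 then gave 0.56 (adjusted p = 0.204), MXD3 0.38 (adjusted p = 0.406) and MNT -0.34 (adjusted p = 0.149). MGA gave -0.26 (adjusted p = 0.176) and MLX 0.17 (adjusted p = 0.278). All 8 calls rest on the label of the K562/IM+L libraries. Groups of 3 libraries were not tested for outlying samples.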

How the results depend on the processing

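The number of members called kept within 1.5 times of that reported under DESeq2, other size factors, other low-count filters, division by 4 and a fit of all 12 libraries. At an adjusted p under 0.01, 2 members were called in K562+L against K562 and 5 in the labelled libraries against K562. The replicate numbers did not pair the libraries, with correlations of same-numbered deviations from -0.18 to 0.067, and with the replicate block 3, 8, 4 and 5 members were called in K562+L against K562, labelled against K562/IM, K562/IM against K562 and labelled against K562, and 7 in the interaction. With the long-transcript share as a covariate, 1 member was called in K562+L against K562, 5 in labelled against K562/IM and 3 in the interaction. All 8 calls in labelled against K562 were kept, and in K562/IM against K562 MXD4 and MLX were kept, MXD1 and MNT lost, and MXD3 and MGA gained. In that fit the log2 fold change turned sign in K562+L for MAX (0.016), MXD1 (-0.39), MXD3 (0.32) and MXD4 (0.059). It turned in labelled against K562/IM for MXD1 (0.055), MNT (0.091) and MGA (0.15), in K562/IM against K562 for MYC (0.16) and MGA (-0.56), and in the interaction for MXD1 (0.56). The groups differ in the share, so the cause was not tested. Leaving out 1 library gave 2 to 6 members in K562+L against K562 (2 without K562 replicate 2), 6 to 9 in labelled against K562/IM, 3 to 6 in K562/IM against K562, 6 to 7 in labelled against K562 and 7 to 8 in the interaction. It moved MAX in K562+L between -0.099 and 0.0052, MXD3 in K562/IM between -0.026 and 0.30 and MGA in K562/IM between -0.0072 and 0.29, none of them called in the fit of all 6 libraries. Upper-quartile factors shifted the median of all genes by 0.15 in labelled against K562 and by 0.13 in the interaction on the log2 scale, where MGA (-0.72, adjusted p = 0.0502) and MXD1 (-0.55, adjusted p = 0.0911) were no longer called. Over all genes in K562+L against K562, 4821 were called as reported, 3126 with the replicate block, 2560 with the covariate, and 2871, 2971 and 3058 without K562 replicate 2, K562+L replicate 1 and K562+L replicate 3. With the covariate the counts were 6089 in place of 9169 in labelled against K562/IM, 4553 in place of 7661 in K562/IM against K562 and 5446 in place of 8628 in the interaction. In labelled against K562 the count rose from 7446 to 9312 with the covariate. Of the activated targets in K562+L, 9 were higher and 3 lower with the replicate block. Counting depth was ample for the members, with no count under 749 (MXD3), while groups of 3 limit the precision of each value.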
